A study of Mus musculus with 9 samples.

Results

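The core loop of the circadian clock was followed through 8 genes, all of them present in the deposited table of 22399 genes: the activators Arntl, Clock and Npas2 and the repressors Cry1, Cry2, Per1, Per2 and Per3. They were taken by gene name, and all 8 passed the expression minimum, a mean of 1 FPKM over the 9 libraries. FPKM is a gene's read count scaled to the length of the gene and the size of the library. The libraries held RNA of basal keratinocytes from mouse plantar (sole of the foot) skin, the cells on the basement membrane that renew the epidermis, sorted as positive for CD49f and negative for CD34. All animals were wild-type C57BL/6. HFD animals were fed a high-fat diet and were 5 months old, Aged animals were 24 months old with no diet given in the labels, and Control animals were fed a normal diet and were 5 months old. Each group had 3 libraries. The labels do not say whether the libraries of a group came from separate animals, so p-values here rest on the spread among the samples alone, and part or all of that spread may be technical.

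The ARNTL protein, also called BMAL1, pairs with CLOCK or with its close relative NPAS2, and the pair binds E-box sequences and switches on the Per and Cry genes. PER and CRY proteins return to the nucleus and silence the pair, so that the loop turns about daily. In most mouse tissues the transcripts of Arntl and Npas2 peak in the opposite part of the day to those of the Per genes and of the output gene Dbp, while Clock transcripts swing little. The epidermis has such a clock, which is known to time DNA replication in keratinocytes. The labels do not give the hour at which skin was taken, so the hour of collection and the group cannot be told apart in these transcripts. In bulk samples, fewer cells with a transcript and less of it per cell cannot be told apart either.

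Of the 8 genes, 7 had promoter windows in RefSeq (GRCm38.p6), each from 250 bases before to 50 bases after an annotated start. Per2 had none in the table used. There were 11 windows because Arntl, Clock and Per1 have several starts. Both strands were searched for 5 motifs of clock factors and their inputs. The E-box CACGTG, bound by ARNTL with CLOCK or NPAS2, was in windows of Cry1 and Per1, against 8.09% of all 27025 genes with windows. CACGTT, a variant of the E-box, was in windows of Cry1 and Cry2, against 5.44% of genes. TTANGTAA, which spans the D-box bound by DBP, TEF, HLF and NFIL3, occurred at 2 places in Per3, against 2.72% of genes with at least 1. TAGGTCA, the core of the element bound by NR1D and ROR receptors, was in a window of Arntl, against 2.97% of genes. TGACGTCA, bound by CREB, was in no window of the 7 genes, against 2.03% of genes. Windows of Clock and Npas2 held none of these letters.

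The promoters of Arntl, Cry1 and Per3 are shown 5′ to 3′ because these genes passed the test in a comparison with Control and held a motif, which is in capitals. That of Arntl (chr7:113207261-113207560, plus strand) holds TAGGTCA after the start. That of Cry1 (chr10:85185005-85185304, minus strand) holds the reverse complement of CACGTT and then CACGTG. That of Per3 (chr4:151044616-151044915, minus strand) holds both copies of the D-box.
Arntl: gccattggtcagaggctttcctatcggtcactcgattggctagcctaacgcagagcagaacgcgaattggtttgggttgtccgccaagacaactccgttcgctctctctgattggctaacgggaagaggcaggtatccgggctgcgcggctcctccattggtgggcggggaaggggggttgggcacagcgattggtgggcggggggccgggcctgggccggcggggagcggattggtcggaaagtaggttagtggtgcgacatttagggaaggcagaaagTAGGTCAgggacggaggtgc
Cry1: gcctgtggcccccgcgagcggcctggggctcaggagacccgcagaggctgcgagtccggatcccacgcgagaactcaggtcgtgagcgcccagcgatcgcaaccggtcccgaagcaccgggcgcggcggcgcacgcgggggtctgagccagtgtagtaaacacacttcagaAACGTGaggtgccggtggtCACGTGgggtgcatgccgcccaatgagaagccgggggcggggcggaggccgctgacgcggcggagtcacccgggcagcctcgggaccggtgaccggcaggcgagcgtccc
Per3: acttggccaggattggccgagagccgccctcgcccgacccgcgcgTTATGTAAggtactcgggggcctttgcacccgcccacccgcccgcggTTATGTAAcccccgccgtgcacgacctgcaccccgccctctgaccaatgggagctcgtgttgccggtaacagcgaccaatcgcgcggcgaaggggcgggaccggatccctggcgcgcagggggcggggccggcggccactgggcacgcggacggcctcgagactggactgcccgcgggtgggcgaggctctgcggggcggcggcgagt

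Estimated depth was 23500000 to 35800000 reads per library, and each of the 8 genes had between 200 and 7490 estimated reads in a library. Krt5, the keratin of basal cells, averaged 12827, 10694 and 11465 FPKM in HFD, Aged and Control. Itga6, which encodes the CD49f of the sort, averaged 164 ± 3.61 FPKM in HFD, 124 ± 8.10 in Aged and 134 ± 3.74 in Control (SD, n = 3 each), and Cd34 did not exceed 0.0671 FPKM. By limma, Itga6 was higher in HFD than in Control (adjusted p = 0.0168) and than in Aged (adjusted p = 0.00575). Of the other basal markers listed, Krt14 averaged more in HFD than in Control. Krt15 (695 against 858 FPKM), Trp63 (89.5 against 93.9), Itgb4 (155 against 187) and Col17a1 (1134 against 1267) averaged less. None of these passed the test. All 7 basal markers averaged less in Aged than in Control, and none passed. Of 46 marker genes of 8 other cell types (melanocytes, Langerhans and myeloid cells, T cells, fibroblasts, endothelial and mural cells, Merkel cells, Schwann cells, fat and muscle), 38 were under 1 FPKM in every library. Cry2 shares 295 exon bases with D930015M05Rik and Arntl shares 33 with Gm45355, both on the opposite strand, and the strand setting of the counting is not given in the sources used here. Gene coordinates below are those of GENCODE M21 (GRCm38). At most 0.064% of the 50-base stretches of any of the 8 genes were shared with transcripts of other genes.

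Among the activators, Arntl and Npas2 were lower in HFD and in Aged than in Control, while Clock passed no test. Npas2 stood at about 0.3 times its Control level in both. Among the repressors, Cry1 was lower in HFD, Per3 was higher in HFD and in Aged, and Per2 was higher in Aged. Cry2 and Per1 passed no test. In HFD against Control 1 of the 8 rose and 3 fell (17.0% of 10367 genes tested were called, 8.26% higher and 8.76% lower). Set against Control, Aged had 2 of the 8 higher and 2 lower (7.76% of genes called, 4.01% higher and 3.74% lower). In Aged against HFD limma called 0 of the 8 (7.99% of genes called), and 2 had an unadjusted p under 0.05. All 3 libraries of a group lay to one side of all 3 Control libraries for 4 of the 8 in HFD (40.4% of genes tested, 19.6% with HFD lower) and for 5 of the 8 in Aged (27.8%). Without Control replicate 2, Control replicate 3 or Aged replicate 1, 2 of the 8 were called in Aged against Control. Genes counted as called where the p-value, adjusted by Benjamini and Hochberg's method over all genes tested, was under 0.05. HFD and Aged were set against the same 3 Control libraries, so the comparisons with Control are not independent of each other. By limma's F test 5 of the 8 differed among the groups (20.4% of genes called), namely Arntl, Npas2, Cry1, Per2 and Per3, and 3 did without Control replicate 2 or HFD replicate 2.

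**Figure D1:**
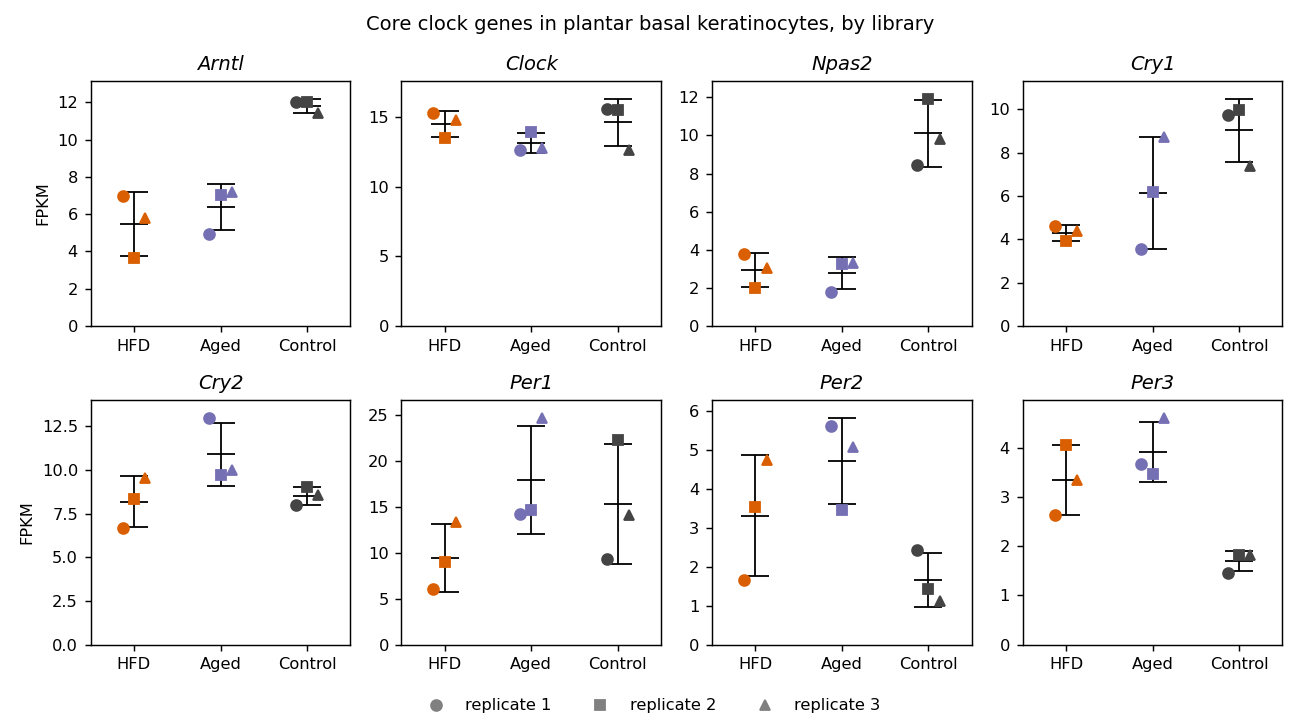
Deposited FPKM of the 8 core clock genes in each library (points; shape gives the replicate number) with the mean and SD of each group (bars, n = 3), for HFD, Aged and Control. All HFD and Aged libraries lie below all Control libraries for Arntl and Npas2 and above them for Per3, whereas Clock overlaps among the groups.

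Arntl, the partner that no other activator of the loop replaces (ENSMUSG00000055116, chr7:113207465-113314126, plus strand), had 6.99, 3.64 and 5.77 FPKM in HFD replicates 1 to 3. It had 4.94, 7.04 and 7.17 FPKM in Aged replicates and 12.0, 12.0 and 11.4 FPKM in Control replicates. Every HFD and Aged library lay below every Control library, and HFD and Aged overlapped. On the scale of log2(FPKM + 1), which understates changes of low genes, the difference was -1.02 ± 0.18 (SE) in HFD against Control (adjusted p = 0.00459). For Aged against Control it was -0.81 ± 0.18 (adjusted p = 0.0207). The Aged call ended without Control replicate 2, Control replicate 3 or Aged replicate 1 (adjusted p = 0.0656, 0.061 and 0.0788) and with no filter on low values (0.0709), over a range of 0.00562 to 0.0788 in all alternatives.

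Npas2, the relative of Clock that can take its place beside ARNTL (ENSMUSG00000026077, chr1:39193731-39363236, plus strand), had the largest difference of the 8 genes in both comparisons with Control. It had 3.79, 2.01 and 3.06 FPKM in HFD replicates, 1.79, 3.25 and 3.30 FPKM in Aged replicates and 8.47, 11.9 and 9.82 FPKM in Control replicates. The groups did not overlap with Control, and HFD and Aged overlapped each other. Npas2 averaged 2.95 ± 0.894 FPKM in HFD and 2.78 ± 0.859 FPKM in Aged, against 10.1 ± 1.75 FPKM in Control (SD, n = 3 each), ratios of 0.293 and 0.276. The log2 difference was -1.50 ± 0.20 in HFD against Control (adjusted p = 0.00147) and -1.57 ± 0.20 in Aged against Control (adjusted p = 0.00153). Its calls held in all 21 alternatives of each comparison (adjusted p at most 0.0127 in HFD and 0.0161 in Aged).

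Clock, the activator with a DNA-binding domain like that of NPAS2 (ENSMUSG00000029238, chr5:76209868-76304792, minus strand), had 15.3, 13.5 and 14.8 FPKM in HFD replicates. It had 12.6, 13.9 and 12.8 FPKM in Aged replicates and 15.6, 15.5 and 12.6 FPKM in Control replicates. The 3 groups overlapped. The log2 difference was 0.00 in HFD against Control, with a 95% interval of -0.20 to 0.20, and -0.14 in Aged against Control, with an interval of -0.33 to 0.06. Within each library, the FPKM of Npas2 was 0.149 to 0.247 of that of Clock in HFD and 0.142 to 0.257 in Aged, against 0.544 to 0.777 in Control. Of the summed level of both genes, Npas2 made up 16.9% in HFD and 17.5% in Aged, against 40.9% in Control.

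**Figure D2:**
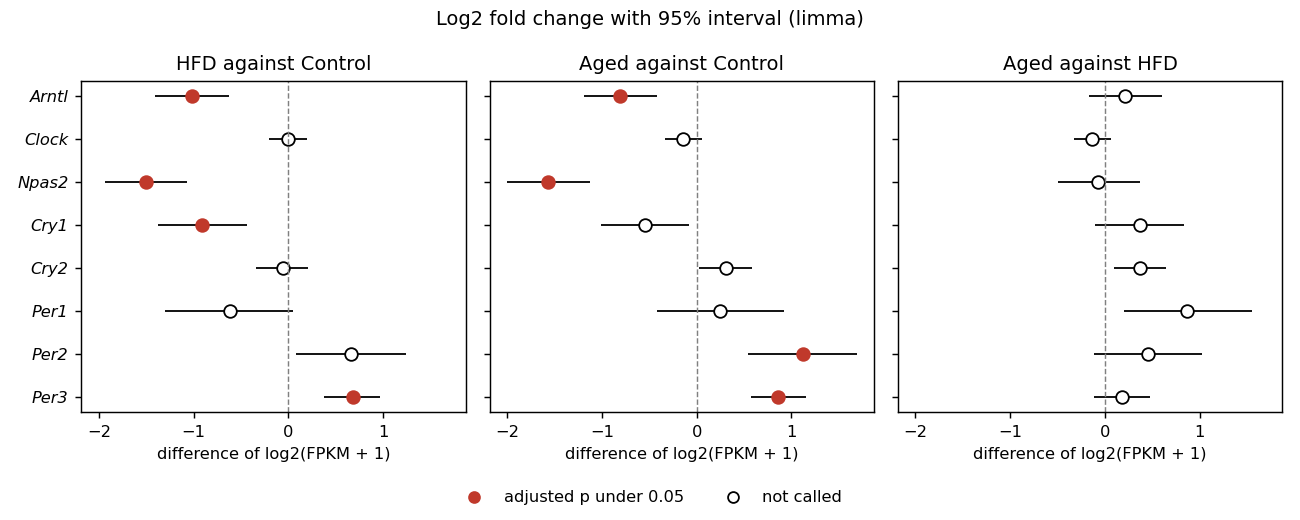
Differences of log2(FPKM + 1) with 95% intervals from limma for the 8 genes in the 3 comparisons (panels, from left: HFD with Control, Aged with Control, Aged with HFD); filled points passed an adjusted p of 0.05. Arntl and Npas2 lie to the left of 0 in both comparisons with Control, Per3 lies to the right, and no point is filled in Aged against HFD.

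Cry1, a repressor that blocks the ARNTL pair (ENSMUSG00000020038, chr10:85131700-85185064, minus strand), had 4.61, 3.90 and 4.37 FPKM in HFD replicates and 3.56, 6.16 and 8.71 FPKM in Aged replicates. In Control replicates it had 9.75, 9.95 and 7.37 FPKM. All HFD libraries lay below all Control libraries, whereas Aged ran from the lowest value of all to within the Control range. It fell by 0.91 ± 0.21 on the log2 scale in HFD against Control (adjusted p = 0.017). It was no longer called when Control replicate 2 (adjusted p = 0.0652) or HFD replicate 2 (0.0545) was left out, or with no filter on low values (0.0635), over a range of 0.00238 to 0.0652 in all alternatives. For Aged against Control the log2 difference was -0.55 ± 0.21 (adjusted p = 0.136), with a range of 0.0202 to 0.379. The lowest of these came without Aged replicate 3, when the difference was -0.80 and was called.

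Cry2, the other cryptochrome (ENSMUSG00000068742, chr2:92403646-92434043, minus strand), had 6.65, 8.35 and 9.54 FPKM in HFD replicates. It had 13, 9.73 and 9.99 FPKM in Aged replicates and 7.98, 9.02 and 8.57 FPKM in Control replicates. All Aged libraries lay above all HFD and all Control libraries, but neither difference passed the test. The log2 difference was 0.31 ± 0.13 in Aged against Control (adjusted p = 0.15) and 0.37 ± 0.13 in Aged against HFD (adjusted p = 0.097). In HFD against Control its 95% interval was -0.34 to 0.21. Within a library Cry2 was 1.44 to 2.18 times the level of Cry1 in HFD and 1.15 to 3.64 times in Aged, against 0.818 to 1.16 times in Control.

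Per1, the Period gene that also answers quickly to hormones and stress (ENSMUSG00000020893, chr11:69095217-69109960, plus strand), had 6.01, 9.0 and 13.3 FPKM in HFD replicates. It had 14.2, 14.7 and 24.7 FPKM in Aged replicates and 9.35, 22.3 and 14.1 FPKM in Control replicates. HFD and Aged did not overlap each other, and both overlapped Control. The log2 difference was 0.87 ± 0.31 in Aged against HFD (adjusted p = 0.109), -0.62 ± 0.31 in HFD against Control (adjusted p = 0.177) and 0.25 ± 0.31 in Aged against Control (adjusted p = 0.64). Its SE was the widest of the 8 genes.

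Per2, a Period gene whose protein carries CRY into the nucleus (ENSMUSG00000055866, chr1:91415982-91459324, minus strand), was the lowest of the 8 in Control by its mean. It had 1.66, 3.54 and 4.74 FPKM in HFD replicates, 5.61, 3.47 and 5.08 FPKM in Aged replicates and 2.44, 1.42 and 1.12 FPKM in Control replicates. Aged lay wholly above Control, while HFD replicate 1 lay within the Control range. It rose by 1.12 ± 0.26 on the log2 scale in Aged against Control (adjusted p = 0.0279). It was no longer called when Control replicate 2, Control replicate 3 or Aged replicate 1 was left out (adjusted p = 0.0895, 0.101 and 0.102), or with no filter on low values (0.0895), over a range of 0.0108 to 0.102 in all alternatives. In HFD against Control the log2 difference was 0.66 ± 0.26 (adjusted p = 0.102), with a range of 0.0254 to 0.304. The lowest of these came without HFD replicate 1, when the difference was 0.97 and was called.

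Per3, a Period gene whose loss leaves the clock running (ENSMUSG00000028957, chr4:151003652-151044665, minus strand), had 2.63, 4.05 and 3.34 FPKM in HFD replicates. It had 3.67, 3.46 and 4.61 FPKM in Aged replicates and 1.46, 1.82 and 1.81 FPKM in Control replicates. Both HFD and Aged lay wholly above Control. It rose by 0.68 ± 0.13 in HFD against Control (adjusted p = 0.00814) and by 0.86 ± 0.13 in Aged against Control (adjusted p = 0.00434). Both calls held in the 20 alternatives that tested the gene; at a minimum mean of 5 FPKM it was not tested. With a pseudocount of 0.1 in place of 1 the differences were 0.92 and 1.15.

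Set in order of group means, HFD ran Clock, Per1, Cry2, Arntl, Cry1, Per3, Per2, Npas2, and below Clock each neighbouring pair overlapped. Aged ran Per1, Clock, Cry2, Arntl, Cry1, Per2, Per3, Npas2, with no overlap between Per1 and Clock, Cry2 and Arntl, or Per3 and Npas2. Control ran Per1, Clock, Arntl, Npas2, Cry1, Cry2, Per3, Per2, with no overlap between Clock and Arntl or Cry2 and Per3, and with overlap in the other neighbouring pairs. Npas2 was the last of the 8 in HFD and in Aged and the fourth in Control.

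The transcript level of a repressor can be set against that of an activator within a library, free of differences in overall scaling between libraries. Biases that differ from gene to gene, such as those tied to GC content, do not cancel in such a ratio. The FPKM of Per2 was 0.238, 0.973 and 0.821 of that of Arntl in HFD replicates 1 to 3 and 1.14, 0.493 and 0.709 in Aged replicates, against 0.203, 0.118 and 0.0981 in Control replicates. HFD replicate 1 was close to Control replicate 1 in this ratio, and the other HFD and all Aged libraries were higher. The FPKM of Per3 was 0.376 to 1.11 of that of Arntl in HFD and 0.491 to 0.743 in Aged, against 0.121 to 0.159 in Control. These ratios combine genes already tested above and are given as a description. The summed level of the Per genes averaged 16.1 ± 5.55 FPKM in HFD and 26.5 ± 6.88 in Aged, against 18.6 ± 6.27 in Control (SD, n = 3 each). Of that sum Per1 made up 58.6% in HFD and 67.4% in Aged, against 82.0% in Control.

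**Figure D3:**
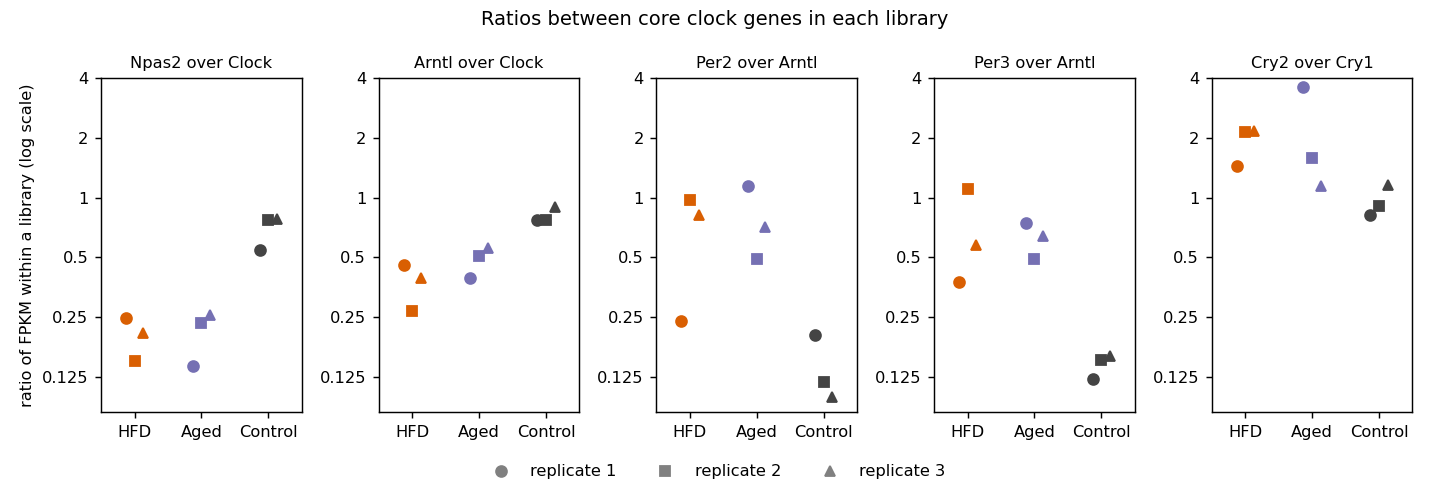
Ratios of FPKM between pairs of core clock genes within each library on a log scale (points; shape gives the replicate number) for HFD, Aged and Control. Npas2 over Clock is at most 0.257 in HFD and Aged libraries and at least 0.544 in Control libraries, and Per3 over Arntl is at least 0.376 in HFD and Aged libraries and at most 0.159 in Control libraries.

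Libraries of a group also differed among themselves, and several clock genes were high or low in the same library. HFD replicate 1 had the highest Arntl, Clock, Npas2 and Cry1 of its group and the lowest Cry2, Per1, Per2 and Per3. HFD replicate 2 had the lowest Arntl, Clock, Npas2 and Cry1 and the highest Per3. Aged replicate 1 had the lowest Arntl, Clock, Npas2 and Cry1 of its group and the highest Cry2 and Per2, but the lowest Per1. Control libraries lay closer together for Arntl, between 11.4 and 12.0 FPKM, than for Per1, between 9.35 and 22.3 FPKM.

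Of the genes of the secondary loop and clock output, 12 of 13 were tested. In HFD against Control 5 rose and 1 fell (8.26% and 8.76% of all genes tested did), with a median log2 difference of 0.27 against 0.01 over all genes. Among the same 12, 7 rose in Aged against Control (4.01% of all genes tested did), with a median of 0.58 against -0.01 over all genes. Dbp, an activator at D-boxes, had 35.5, 66.8 and 56.6 FPKM in HFD replicates, 56.6, 40.9 and 49.5 in Aged replicates and 11.3, 16.3 and 19.3 in Control replicates. Its log2 difference was 1.68 ± 0.22 in HFD against Control (adjusted p = 0.00151) and 1.61 ± 0.22 in Aged against Control (adjusted p = 0.00237), with no overlap in either. Tef, its relative, averaged 37.8 FPKM in HFD and 40.6 in Aged, against 15.5 in Control, and Nr1d2, a repressor at the element found in the Arntl window, had 24.6 to 33.8 FPKM in HFD and 26.5 to 28.2 in Aged, against 15.1 to 17.1 in Control. Bhlhe40 and Bhlhe41, repressors at E-boxes, were also called in both, with log2 differences of 0.35 and 0.91 in HFD and of 0.86 and 1.20 in Aged. Hlf, a D-box factor (0.43), and Ciart, a repressor of the ARNTL pair (1.07), were called in Aged, and Nfil3, a repressor at D-boxes, fell in HFD (-0.82); these 3 were picked after their values were seen. Nr1d1, the closest relative of Nr1d2, was not called (log2 difference 0.05 ± 0.13 in HFD and 0.23 ± 0.13 in Aged). Arntl2, a paralog of Arntl, was not called either (0.18 ± 0.10 in HFD and 0.34 ± 0.10 in Aged).

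**Figure D4:**
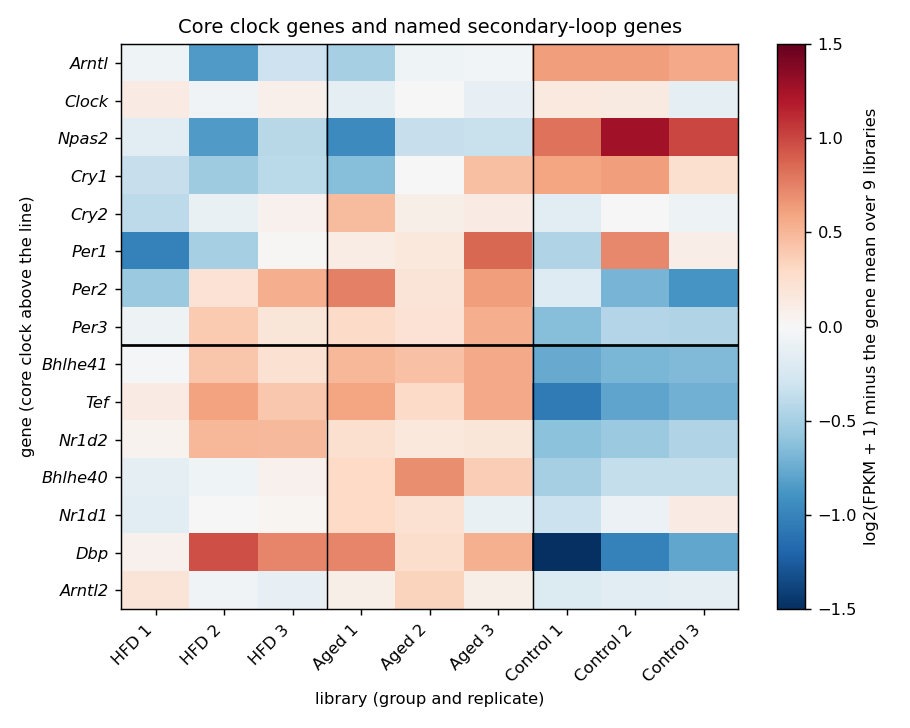
Log2(FPKM + 1) minus the mean of the gene over the 9 libraries, for the 8 core clock genes (above the line) and named genes of the secondary loop (below it), with libraries of HFD, Aged and Control from left to right. Arntl and Npas2 are above their means in the 3 Control libraries, where Per3, Dbp, Tef, Nr1d2 and Bhlhe41 are below theirs.

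Of 36 genes whose proteins modify or degrade clock proteins, 34 were tested. Of these, 4 were higher in HFD against Control (8.26% of all genes tested were) and 1 in Aged against Control (4.01%), with medians of 0.06 and 0.01. The gene higher in both was Cipc, an inhibitor of CLOCK, at 5.49, 6.71 and 5.64 FPKM in HFD replicates, 7.74, 6.06 and 7.56 in Aged replicates and 4.05, 4.31 and 3.03 in Control replicates. The others in HFD were Kmt2a, a histone methyltransferase (0.35), Tipin, a partner of TIMELESS (0.31), and Prkaa1, a catalytic chain of the energy sensor AMPK (0.27), of which the last 2 were picked after their values were seen. Csnk1d and Csnk1e, the kinases that mark PER proteins for decay, had -0.04 ± 0.07 and -0.08 ± 0.07 in HFD and 0.00 ± 0.07 and 0.23 ± 0.07 in Aged against Control, none of them called. Between Aged and HFD, Csnk1e was called higher in Aged (0.31, adjusted p = 0.0262) and Sfpq, an RNA-binding cofactor of PER, lower (-0.34, adjusted p = 0.0319). Usp2, a deubiquitinase with a daily rhythm, had 0.46 ± 0.18 in HFD and 0.03 ± 0.18 in Aged against Control, and neither was called. Of 20 genes with a daily rhythm in many mouse tissues, 19 were tested and 4 fell in HFD (8.76% of all genes tested did), with a median of -0.14. Among them were Cirbp, a cold-inducible RNA-binding protein (-0.57), Pim3, a kinase (-0.47), and Dtx4, a Notch pathway ubiquitin ligase (-0.45). The median of these 19 was 0.05 for Aged against Control, where limma called 0 of them (7.76% of all genes tested) and 2 had an unadjusted p under 0.05.

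Beside the counts that follow, 8.26% of all genes tested rose and 8.76% fell in HFD against Control, and 4.01% rose and 3.74% fell in Aged against Control. Immediate early genes, which answer within minutes to growth factors and stress, were followed because Per1 answers to some of the same inputs. Of 16 tested, 12 rose in Aged against Control, with a median of 1.35, and 2 rose in HFD against Control (Fos, 0.62, and Atf3, 0.88), with a median of -0.02. Their summed level was 1913 to 2409 FPKM in Aged and 765 to 1129 in HFD, against 741 to 1025 in Control. Atf3, Zfp36 and Egr1, regulators of transcription or of mRNA decay, had log2 differences of 2.47, 1.46 and 1.23 in Aged. These levels moved with the Aged group, in which Per2 was called against Control. Per1 had its highest mean in Aged, but its Aged libraries overlapped Control and it was not called. The part of the immediate early genes in those values was not tested. Of 12 glucocorticoid-responsive genes tested, which include Per1 and Dusp1 of the lists above, 3 rose in Aged (Dusp1, 0.95, Errfi1, 0.59, and Ddit4, 0.41) and 1 fell in HFD (Fkbp5, -0.46, picked after its value was seen). This list also shares Tsc22d3, Sgk1 and Klf9 with that of genes with a daily rhythm. Of 10 heat shock genes, 3 rose and 1 fell in Aged (Hspb1, 0.72, Dnajb1, 0.44, Hspe1, 0.29, and, lower, Hsph1, -0.40) and 1 rose in HFD (Hsp90aa1, 0.35). Of 14 cell cycle genes, 8 rose in HFD, among them Cenpe (1.04), Hmmr (0.91) and Mki67 (0.79), and 3 fell in Aged (Mcm5, Pcna and Rrm2). Fos, Hspe1, Hsp90aa1, Mcm5, Pcna and Rrm2 were picked after their values were seen. The summed level of the cell cycle genes was 749.9 to 783 FPKM in HFD and 419 to 519.7 in Aged, against 524 to 627 in Control. Some markers of other cells also moved with the groups. Of 9 suprabasal markers, summing to 6138 to 8554 FPKM in HFD and 7929 to 11021 in Aged, against 6482 to 8243 in Control, Krt1 was called higher in Aged (0.61) and Grhl1 lower in HFD (-0.55), and none was at 0. Of 6 hair follicle markers, summing to 199.5 to 284 FPKM in HFD and 294 to 335 in Aged, against 191 to 295 in Control, Sox9 was called higher in Aged against Control (0.64) and Krt79 higher in Aged against HFD (1.54). Of the 6 fibroblast markers, summing to 1.5 to 2.55 FPKM in HFD and 3.48 to 4.45 in Aged, against 4.51 to 6.64 in Control, 5 were under 1 FPKM everywhere, Lum was listed at 0 and Dcn held nearly all of the rest. Dcn was called lower in HFD against Control (-1.04) and higher in Aged against HFD (0.67). The 6 sweat gland markers summed to 9.04 to 12.5 FPKM in HFD and 2.17 to 5.33 in Aged, against 2.28 to 5.8 in Control. Most of the sum was Ehf, an ETS factor of epithelia, which averaged 9.35 FPKM in HFD and 2.49 in Control. It was called in HFD (1.57). Krt8, Krt18, Krt19 and Aqp5 averaged less in HFD than in Control. Of the 6 markers 4 were under 1 FPKM everywhere, and Foxi1 was listed at 0. The 4 Merkel cell markers, 3 of them under 1 FPKM everywhere, summed to 0.639 to 1.15 FPKM in HFD and 0.64 to 1.27 in Aged, against 0.1 to 0.136 in Control. Isl1 held nearly all of this, averaging 0.814, 0.94 and 0.114 FPKM in HFD, Aged and Control. Atoh1 and Piezo2 did not exceed 0.0297 and 0.0151 FPKM, and Krt20 was listed at 0. None of the 4 reached the expression minimum for testing. The part of the cell cycle genes and of these markers in the clock values was not tested.

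The genes most like each clock gene were sought among 10190 tested genes, with all the core clock genes themselves and predicted gene models left out. The measure was the root mean square difference of log2(FPKM + 1), each gene centred on its mean over the 9 libraries. Likeness between clock genes was therefore not searched. For Arntl, whose own deviation about its mean was 0.49, they were Osgin1, induced by oxidative stress (0.12), Hs3st6, a heparan sulfate sulfotransferase (0.16), and Slc25a28, a mitochondrial iron carrier (0.23). For Npas2 (0.77) they were Hs3st6 (0.32), Etv4, an ETS transcription factor (0.37), and Osgin1 (0.39). For Cry1 (0.47) the nearest was Nfil3 (0.18), followed by Mapk15, an atypical MAP kinase (0.20), and Nudt8, of the Nudix hydrolase family (0.21). For Per1 (0.56) it was Sik1, a salt-inducible kinase (0.17), followed by Hbegf, a ligand of the EGF receptor (0.26), and Ptgs2, a prostaglandin synthase (0.28). Sik1 had 27.2, 30.1 and 45.2 FPKM in HFD replicates, 47.9, 52.5 and 76.7 in Aged replicates and 36.1, 58.4 and 47.5 in Control replicates. It was high and low in much the same libraries as Per1, which is what the search selects for. Sik1 is also on the list of immediate early genes above. For Per2 (0.58) they were Sdcbp2, a syntenin (0.25), Ms4a10 (0.26) and Ifi27l2a, an interferon-induced gene (0.28). For Per3 (0.40) they were Tmem237, a protein of the ciliary transition zone (0.12), Ankrd12, an ankyrin repeat protein (0.12), and Gstp3, a glutathione transferase (0.14). Clock (0.11) and Cry2 (0.22) varied little on this scale, and so did their nearest genes. These were Abraxas1 (0.05), Cdkn1b (0.05) and Pcf11 (0.06) for Clock and Inafm2 (0.07), Glb1l (0.08) and Gpr146 (0.09) for Cry2. Glb1l ran from 0.691 to 1.7 FPKM and Gpr146 from 0.725 to 1.85, low levels whose changes the scale understates. Inafm2 was called higher in Aged against HFD (limma, adjusted p = 0.0377).

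Set against each other, Aged and HFD differ in age and, as far as the labels go, in diet. Limma called 0 of the 8 genes, and only Per1 and Cry2 did not overlap between the groups (29.8% of all genes tested did not). The 95% intervals of the log2 difference were -0.17 to 0.60 for Arntl, -0.50 to 0.37 for Npas2, -0.10 to 0.84 for Cry1, -0.12 to 1.03 for Per2 and -0.11 to 0.48 for Per3. For Per1 the interval was 0.20 to 1.55 and for Cry2 0.10 to 0.65, before adjustment over all genes. Without Aged replicate 1, Cry1 was called higher in Aged (0.66, adjusted p = 0.0362, in a range of 0.0362 to 0.745 over the alternatives).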

How the data were processed

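RNA was measured in 9 libraries of sorted plantar basal keratinocytes, 3 per group, grouped by their titles. The authors deposited 1 table of FPKM per gene, and the submitters' processing notes name STAR 2.6.0c and HTSeq 0.11.2, besides cutadapt and DESeq2 1.30.0, and the build mm10. The tool and gene lengths behind the FPKM are not given in the sources used here. Low FPKM multiplied by merged exon length (GENCODE M21) fell on whole multiples of a step particular to the library, within 0.02 of a whole number for 97.5% to 98.2% of values under about 30 reads, and these steps gave estimated reads and depth.

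A single limma model (version 3.58.1, R 4.3.3) was fitted to log2(FPKM + 1) of all 9 libraries (eBayes with trend, two-sided, 6 residual and 5.5 prior degrees of freedom), over the 10367 genes whose mean reached 1 FPKM. Calls used a Benjamini-Hochberg adjusted p under 0.05 over all of them. Intervals are 95% and unadjusted. The steps were tested on simulated data.

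The 8 genes and the lists were chosen with earlier results of these data known. Named were all 8 genes, up to 4 genes per pathway list and 3 per input list with the smallest F test p, and some fixed regulators. The 3 genes nearest to each clock gene were also named, with the 8 clock genes and predicted models left out of that search. Some genes of the lists are not reported here. Alternatives were other pseudocounts, filters, scalings, library weights, robust eBayes, a replicate block, a GC correction, a fit to just the 6 libraries of a comparison, and leave-one-out fits.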

Additional observations from a re-analysis of the deposited data

How the results depend on the processing

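Over the alternatives, 467 values of single clock genes kept their direction and their side of the threshold, 11 lost a call, 5 gained a call and 15 changed sign, none of these in a called value. In HFD against Control, Clock turned to -0.05 with scaling to total FPKM, -0.04 with library weights and -0.14 with a GC correction, with or without the replicate block, and ranged from -0.09 to 0.05 with libraries left out. Cry2 turned to 0.04 with the GC correction, with or without the block, and ranged from -0.17 to 0.06 with libraries left out. For Aged against Control, Per1 ranged from -0.04 to 0.55 with libraries left out. For Aged against HFD, Arntl ranged from -0.01 to 0.38 and Npas2 from -0.25 to 0.14 with libraries left out, and Npas2 turned to 0.06 with library weights. The causes were not tested.

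Clock genes called in HFD against Control numbered 4, and 3 to 5 in every alternative. In Aged against Control the 4 became 2 with no filter on low values, with a minimum mean of 5 FPKM, which removes Per2 and Per3 from the test, or without Control replicate 2, Control replicate 3 or Aged replicate 1, in a range of 2 to 5 with libraries left out. In Aged against HFD the 0 became 1 with the replicate block (Per1), with or without the GC correction, and without Aged replicate 1 (Cry1), in a range of 0 to 1. By the F test the 5 became 3 with no filter, a minimum mean of 5 FPKM, or without Control replicate 2 or HFD replicate 2, in a range of 3 to 5 with libraries left out, and 6 with the replicate block.

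All genes called in HFD against Control were 1764, 1161 with the GC correction, 749 without Control replicate 2, 877, 900 and 1012 without HFD replicates 1, 2 and 3, at most 2111 with any library left out, and at most 2388 over all alternatives (library weights). In Aged against Control they were 804, 469 from only the 6 libraries, 320 and 318 without Control replicates 2 and 3, and 304, 387 and 1254 without Aged replicates 1, 2 and 3. In Aged against HFD they were 828, 541 with no filter, 475, 381 and 391 without HFD replicates 1, 2 and 3, 448 without Aged replicate 1, at most 775 with any library left out, and at most 1138 over all alternatives (library weights). By the F test they were 2110, 1204 without Control replicate 2, 1228, 1163 and 1325 without HFD replicates 1, 2 and 3, at most 2479 with any library left out, and at most 2756 over all alternatives. Scaling to total FPKM gave 597 higher and 1165 lower in HFD against Control, where the unscaled values gave 856 and 908, and 360 and 507 in Aged against Control, where they gave 416 and 388.

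Replicate numbers are shared by the groups but did not pair all the libraries. Same-numbered libraries of different groups correlated in their deviations at -0.05 to 0.27, and differently numbered ones at -0.29 to 0.22. Not every library correlated best with its own number. Those of replicate 3 did, at 0.27 (Control with HFD), 0.21 (HFD with Aged) and 0.19 (Control with Aged). With the replicate block, all genes called went from 1764 to 2061 in HFD against Control and from 804 to 1137 in Aged against Control. An effect shared by replicate 3 was not tested. Besides Per1 in Aged against HFD (adjusted p = 0.0282, in a range of 0.0282 to 0.293 over the alternatives), the replicate block changed no limma call of a clock gene between a pair of groups. By the F test among the 3 groups, the clock genes called went from 5 to 6 with the block. Each clock gene had at least 200 estimated reads in a library.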
